A study of Mus musculus with 12 samples.

Results

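Alveolar type 2 (AT2) cells make pulmonary surfactant, and the 10 genes described here encode enzymes that build its main lipid, phosphatidylcholine, and the triglyceride that the same precursors can form, together with 1 protein that coats stored lipid. They are Chka, Pcyt1a, Chpt1, Cept1, Lpcat1, Gpam, Lpin2, Dgat1, Dgat2 and Plin2, and they were taken by symbol from a table of 21878 genes. The list rests on what the genes are known to do, and it was drawn up with earlier results of these data known. All 10 were found and all 10 passed the filter on low values, which left 10675 genes for testing. In the choline branch, choline is phosphorylated, activated as CDP-choline and joined to diacylglycerol. In the glycerolipid branch, glycerol-3-phosphate is acylated to phosphatidic acid and dephosphorylated to diacylglycerol, which then goes either to phosphatidylcholine or, with another acyl chain, to triglyceride kept in lipid droplets. AT2 cells remodel new phosphatidylcholine by exchange of acyl chains, which yields the dipalmitoyl form that lowers surface tension in the alveolus.

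RNA was sequenced from AT2 cells sorted from mouse lungs in 4 groups of 3 samples each. AT2-PBS and AT2-BLM came from Atg5 f/f mice, which the labels call wild type, given phosphate-buffered saline (PBS) or bleomycin (BLM), a compound used to damage alveoli. Atg5-/- AT2-PBS and Atg5-/- AT2-BLM came from Nkx2.1Cre;Atg5 f/f mice, in which Cre driven by Nkx2.1, active throughout the lung epithelium, removes part of Atg5, a gene needed to form autophagosomes. All mice carried floxed Atg5 on a C57BL/6 background, and the study's methods give males of 8 to 12 weeks and BLM into the trachea at 2 U/kg, with cells of BLM-treated mice taken at day 14. The sort kept EpCAM+ cells negative for CD31, CD34, CD45, CD24 and Sca-1. Nothing states that samples of a group came from separate animals, so p-values measure the spread between these samples.

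Atg5 itself was listed at 6.01 to 12.5 FPKM (a fragment count scaled to transcript length and to library size) in AT2-PBS, 9.97 to 11.1 in AT2-BLM, 6.72 to 10.1 in Atg5-/- AT2-PBS and 8.37 to 8.84 in Atg5-/- AT2-BLM. Neither genotype comparison passed the test (adjusted p = 0.781 with PBS and 0.796 with BLM, limma), and a total over the gene does not check the loss of part of it. AT2 markers were high in all 12 samples, with Napsa at 2032 to 3289 FPKM, but Sftpc was listed at 0 in 11 samples and at 112570 in AT2-BLM replicate 2. The 3 Atg5-/- AT2-PBS samples stood apart by markers of other cells. Summed over 10 alveolar macrophage markers, FPKM was 1032 to 1429 there, against 13.9 to 54.1 in AT2-PBS, 36.2 to 121 in AT2-BLM and 34.7 to 204 in Atg5-/- AT2-BLM. Summed over 12 hepatocyte markers it was 1958 to 3404 there, against 3.34, 6.36 and 548 in AT2-PBS, 237 to 775 in AT2-BLM and 172 to 1197 in Atg5-/- AT2-BLM. Against AT2-PBS, all 9 tested macrophage markers and all 12 hepatocyte markers were called higher. All 7 tested fibroblast markers were also called higher, with sums of 112 to 114 FPKM against 5.87 to 13.5, as were 6 of 7 leukocyte markers, with sums of 365 to 452 against 71.5 to 108. Of airway markers 6 of 7, of red cell markers 2 of 2, and of endothelial markers 1 of 5 were called higher. Of 8 AT2 markers, without Sftpc and Lpcat1, 1 was called higher and 3 lower, and of 8 alveolar type 1 markers 2 higher and 1 lower. Over all genes, 14.1% were called higher and 5.16% lower in this comparison. Markers also differed between AT2-BLM and AT2-PBS, where 20.6% of all genes were called higher and 7.77% lower. Called higher were 4 of 8 alveolar type 1, 9 of 12 hepatocyte, 4 of 7 leukocyte and 3 of 5 endothelial markers. Of 7 airway markers 6 were called lower, as was 1 leukocyte marker, and none of the 7 fibroblast markers was called. Of 9 macrophage markers 1 was called higher and 1 lower, and of the same 8 AT2 markers 1 higher and 2 lower. What these markers contribute to the 10 genes was not tested. In bulk RNA such as this, fewer cells of a type and less RNA per cell cannot be told apart.

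The promoters of Lpcat1, Gpam and Plin2 are printed because these genes carry most of the differences described below. Each window holds 300 bases, of which the last 50 follow a transcription start listed in the RefSeq table of GRCm38.p6, and matched the mm9 build of these data once and without mismatch. Of the 10 genes, 8 had a promoter entry, Dgat1 and Dgat2 being the exceptions. Capitals mark a GC box (GGGCGG) or a CCAAT box (CCAAT), read on both strands, so that CCGCCC and ATTGG are the same boxes on the other strand. The Lpcat1 window is chr13:73604429-73604728 on the plus strand. The Gpam windows are chr19:55201679-55201978 and chr19:55173918-55174217, and that of Plin2 is chr4:86315914-86316213, all on the minus strand.
Lpcat1: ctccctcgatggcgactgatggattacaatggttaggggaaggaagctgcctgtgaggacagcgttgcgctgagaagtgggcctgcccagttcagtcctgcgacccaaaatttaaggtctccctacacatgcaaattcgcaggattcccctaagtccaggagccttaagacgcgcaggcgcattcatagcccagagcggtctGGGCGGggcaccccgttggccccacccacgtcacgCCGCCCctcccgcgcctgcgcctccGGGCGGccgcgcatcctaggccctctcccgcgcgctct
Gpam, start 1: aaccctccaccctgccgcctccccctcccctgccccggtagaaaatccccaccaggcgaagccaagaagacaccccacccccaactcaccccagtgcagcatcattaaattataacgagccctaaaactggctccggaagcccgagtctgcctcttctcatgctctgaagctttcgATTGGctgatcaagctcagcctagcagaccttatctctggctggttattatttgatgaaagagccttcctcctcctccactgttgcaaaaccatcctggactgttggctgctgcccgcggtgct
Gpam, start 2: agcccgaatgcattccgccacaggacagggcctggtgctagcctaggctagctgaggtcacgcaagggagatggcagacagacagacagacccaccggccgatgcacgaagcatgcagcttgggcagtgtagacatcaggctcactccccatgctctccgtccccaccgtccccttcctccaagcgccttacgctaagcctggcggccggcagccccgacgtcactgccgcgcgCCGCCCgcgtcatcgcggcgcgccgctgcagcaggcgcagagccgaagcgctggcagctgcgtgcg
Plin2: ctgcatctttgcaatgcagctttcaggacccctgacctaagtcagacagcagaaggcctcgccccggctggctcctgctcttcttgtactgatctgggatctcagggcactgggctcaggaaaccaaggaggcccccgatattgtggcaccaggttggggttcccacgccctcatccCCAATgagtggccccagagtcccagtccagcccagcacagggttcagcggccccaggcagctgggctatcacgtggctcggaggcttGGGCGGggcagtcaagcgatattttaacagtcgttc

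A GC box was present in 35.7% of the 32851 RefSeq promoters and a CCAAT box in 37.4%, so neither sets these genes apart. The Lpcat1 window held 3 GC boxes and no CCAAT box. The farther upstream Gpam start had a CCAAT box at position -74 from it, the other Gpam start a GC box, and Plin2 both boxes. A sterol regulatory element (TCACNCCAC), present in 1.24% of promoters, was found, among these 8 genes, in Pcyt1a alone, at position -116 from its first listed start. No window of the 8 genes held TATAAA, which 13.6% of promoters contain, or the nuclear receptor motif known as direct repeat 1, which 0.0396% contain. CAAGTG, the core bound by NKX2-1, was in 1 of the Lpin2 windows and in 13.6% of promoters. A match in letters is a description of the window and was not tested as a binding site.

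The question put to the data was how transcripts of genes that supply surfactant phospholipid and stored lipid differed between the 4 groups. Lipid amounts and rates of synthesis are not measured by these values. A gene was called changed at an unadjusted p under 0.05 with a fold change of at least 1.4, the rule of the study, in a limma fit of log2(FPKM + 1) over all 12 samples, and the p adjusted over all 10675 genes is given beside it. Between AT2-BLM and AT2-PBS, 2 of the 10 genes were called, Gpam and Lpcat1, both lower, where 28.4% of all tested genes were called and 7.77% were called lower. Both also passed at an adjusted p, as did 17.4% of all genes, and 5 of the 10 had groups that did not overlap, as did 40.2% of all genes. The median change of the 10 genes was -0.22 on the log2 scale, against 0.17 over all tested genes. Between Atg5-/- AT2-PBS and AT2-PBS, 5 of the 10 were called, where the share over all genes was 19.3%. Chka, Lpcat1 and Gpam were lower, where 5.16% of all genes were called lower, and Dgat2 and Plin2 higher, where 14.1% were. Lpcat1, Dgat2 and Plin2, 3 of the 10, also passed at an adjusted p, against 11.2% of all genes. The same 5 genes had groups that did not overlap, against 28.9% of all genes.

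After BLM fewer genes were called between the genotypes. Between Atg5-/- AT2-BLM and AT2-BLM, 1 of the 10 genes was called, Gpam, which was higher, where 5.16% of all genes were called and 2.04% were called higher. None of the 10 and 1 gene in the whole table, 0.00937%, passed at an adjusted p in limma there. Gpam and Dgat1, 2 of the 10, had groups that did not overlap, against 13.4% of all genes. Between Atg5-/- AT2-BLM and Atg5-/- AT2-PBS, 2 of the 10 were called, Dgat2 and Plin2, both lower, where 18.4% of all genes were called and 10.7% were called lower. Dgat2, 1 of the 10, passed at an adjusted p, against 8.65% of all genes, and 4 of the 10, Lpcat1, Dgat1, Dgat2 and Plin2, did not overlap, against 24.9%. The effect of BLM differed between the genotypes for 5 of the 10 genes, where 20.2% of all genes were called. The difference was positive for Lpcat1 and Gpam, where 5.02% of all genes were called positive, and negative for Dgat1, Dgat2 and Plin2, where 15.2% were called negative. At an adjusted p it passed for 3 of the 10, Lpcat1, Gpam and Dgat2, against 7.89% of all genes. The comparisons share groups: AT2-PBS enters both the BLM effect in AT2 cells and the genotype effect with PBS, so a high or low AT2-PBS sample moves both.

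**Figure D1:**
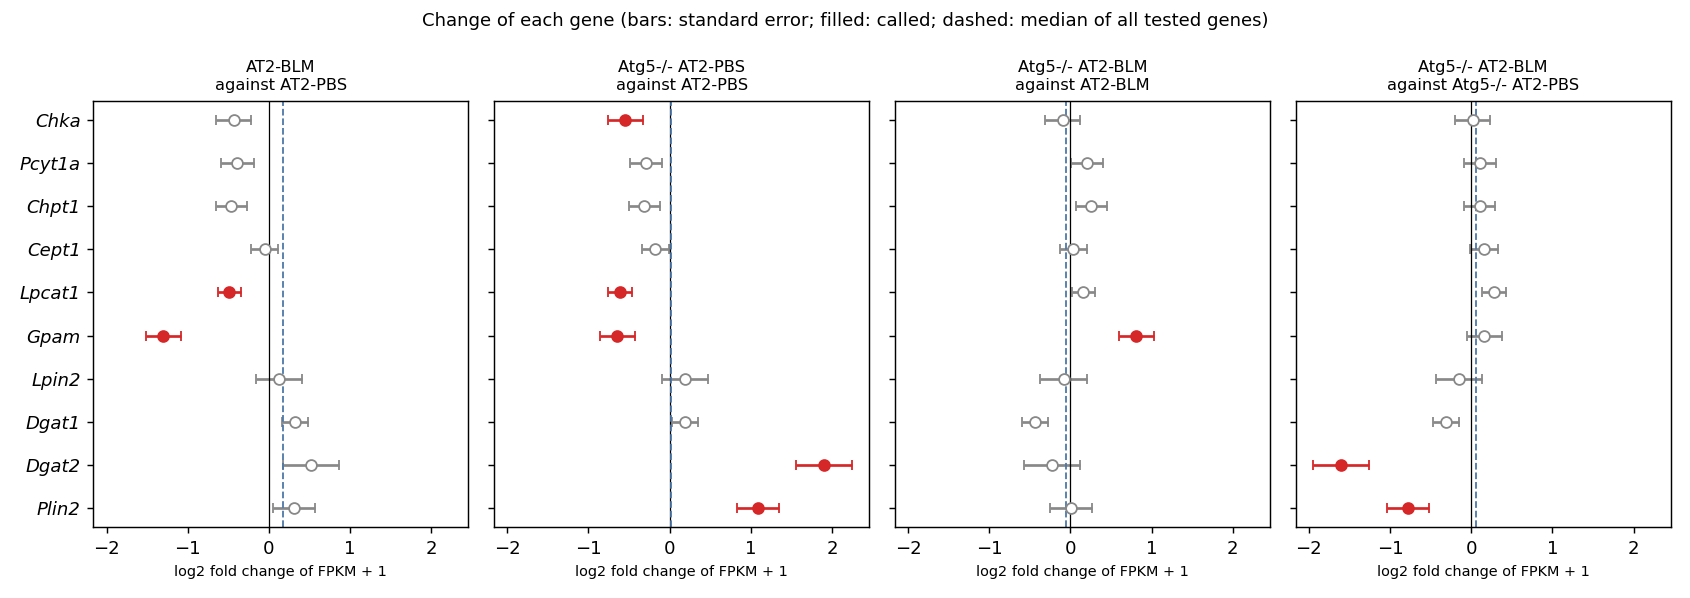
Log2 fold change of FPKM + 1 of the 10 genes (vertical axis) in 4 comparisons, 1 panel each, with the standard error as bars. Filled points are called, and the dashed line is the median of all 10675 tested genes. Gpam and Lpcat1 lie at -1.299 and -0.49 in the first panel, and Dgat2 and Plin2 at 1.90 and 1.09 in the second.

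The scale of the samples bears on these counts. The median of all genes was 0.17 higher in AT2-BLM than in AT2-PBS, and 72.6% of the genes called were higher. Quantile normalization moved that median to -0.02 and that share to 46.9%, and median-ratio scaling to 0.02 and 50.9%. Under either of these, 5 of the 10 genes were called lower after BLM, namely Chka, Pcyt1a, Chpt1, Lpcat1 and Gpam. Over all 10675 tested genes, 1398 were called lower with quantile normalization and 1355 with median-ratio scaling, against 829 without either. With PBS, quantile normalization moved the higher share of the genotype calls from 73.2% to 42.6% and the median of all genes from 0.02 to -0.17. AT2 markers themselves were not level between groups, and scaling to 8 of them, without Sftpc and Lpcat1, left Gpam as the 1 gene called lower after BLM. That scaling was chosen after the data were seen. Under it the genotype calls with PBS became Dgat1, Dgat2 and Plin2, all higher, and none of the 10 genes was called lower. Over all tested genes, 3127 were then called higher and 60 lower in that comparison, and the median change was 0.37. After BLM in AT2 cells, 3356 were called higher and 405 lower under this scaling, with a median of 0.36.

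Of the choline branch, Chka was the gene that was called in a comparison. It encodes choline kinase alpha, which phosphorylates choline, and lies at chr19:3851773-3894369 in mm9, overlapped on the other strand by Gm16066. In replicate order, the FPKM of Chka was 8.26, 6.79 and 5.85 in AT2-PBS, 3.95, 4.42 and 6.48 in AT2-BLM, 3.60, 4.15 and 5.68 in Atg5-/- AT2-PBS, and 4.65, 3.75 and 5.16 in Atg5-/- AT2-BLM. All 3 samples of Atg5-/- AT2-PBS and of Atg5-/- AT2-BLM lay below those of AT2-PBS, whereas AT2-BLM replicate 3 lay within them. Chka was lower in Atg5-/- AT2-PBS than in AT2-PBS by a log2 change of -0.55 (SE 0.21, unadjusted p = 0.0255, adjusted p = 0.144, limma), a call that does not hold at an adjusted p. The call was lost without AT2-PBS replicate 1 (log2 change of -0.43), without Atg5-/- AT2-PBS replicate 1 (-0.43) or replicate 2 (-0.51), and under the scaling to AT2 markers (-0.18). After BLM in AT2 cells the change of Chka was -0.43 (SE 0.21, adjusted p = 0.176), and it passed without AT2-PBS replicate 3 (-0.54) or AT2-BLM replicate 3 (-0.61).

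Pcyt1a encodes the enzyme that makes CDP-choline, the rate-limiting step of the branch, at chr16:32431007-32475156. Its FPKM was 19.3, 21.8 and 16.6 in AT2-PBS, 16.4, 15.9 and 11.3 in AT2-BLM, 15.3, 12.8 and 18.6 in Atg5-/- AT2-PBS, and 20.8, 13.98 and 16.04 in Atg5-/- AT2-BLM. AT2-BLM lay below AT2-PBS in all samples, by a narrow gap, and the other groups overlapped. The log2 change after BLM in AT2 cells was -0.39 (SE 0.20, adjusted p = 0.191) and was not called. The effect of BLM on Pcyt1a in the other genotype was 0.11 (SE 0.20), and the difference of the effects, 0.50 (SE 0.28, adjusted p = 0.361), did not pass.

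Chpt1 and Cept1 encode the enzymes that join CDP-choline to diacylglycerol, Cept1 also accepting CDP-ethanolamine. Chpt1, at chr10:87915490-87966818 and overlapped on the other strand by Sycp3, had FPKM of 3.89, 3.57 and 5.92 in AT2-PBS, 2.96, 2.51 and 3.23 in AT2-BLM, 3.67, 3.03 and 3.30 in Atg5-/- AT2-PBS, and 4.29, 3.65 and 3.08 in Atg5-/- AT2-BLM. Again AT2-BLM lay wholly below AT2-PBS. The log2 change of Chpt1 was -0.46 (SE 0.19, unadjusted p = 0.0336, adjusted p = 0.115), short of the fold required. It passed when AT2-PBS replicate 1 (-0.53), AT2-PBS replicate 2 (-0.58) or AT2-BLM replicate 3 (-0.52) was left out. Cept1, at chr3:106305178-106350720 and overlapped on the other strand by Dennd2d and Dram2, was the steadiest of the 4. Its mean was 7.71 ± 0.16 FPKM (SD, n = 3) in AT2-PBS, 7.40 ± 0.28 in AT2-BLM, 6.77 ± 1.26 in Atg5-/- AT2-PBS and 7.71 ± 1.59 in Atg5-/- AT2-BLM, and its log2 changes ran from -0.18 to 0.16 over the 4 comparisons of groups. The strand setting of the counting is not given in the sources used here, so reads of Chka, Chpt1 and Cept1 cannot be told apart from those of the genes that overlap them.

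**Figure D2:**
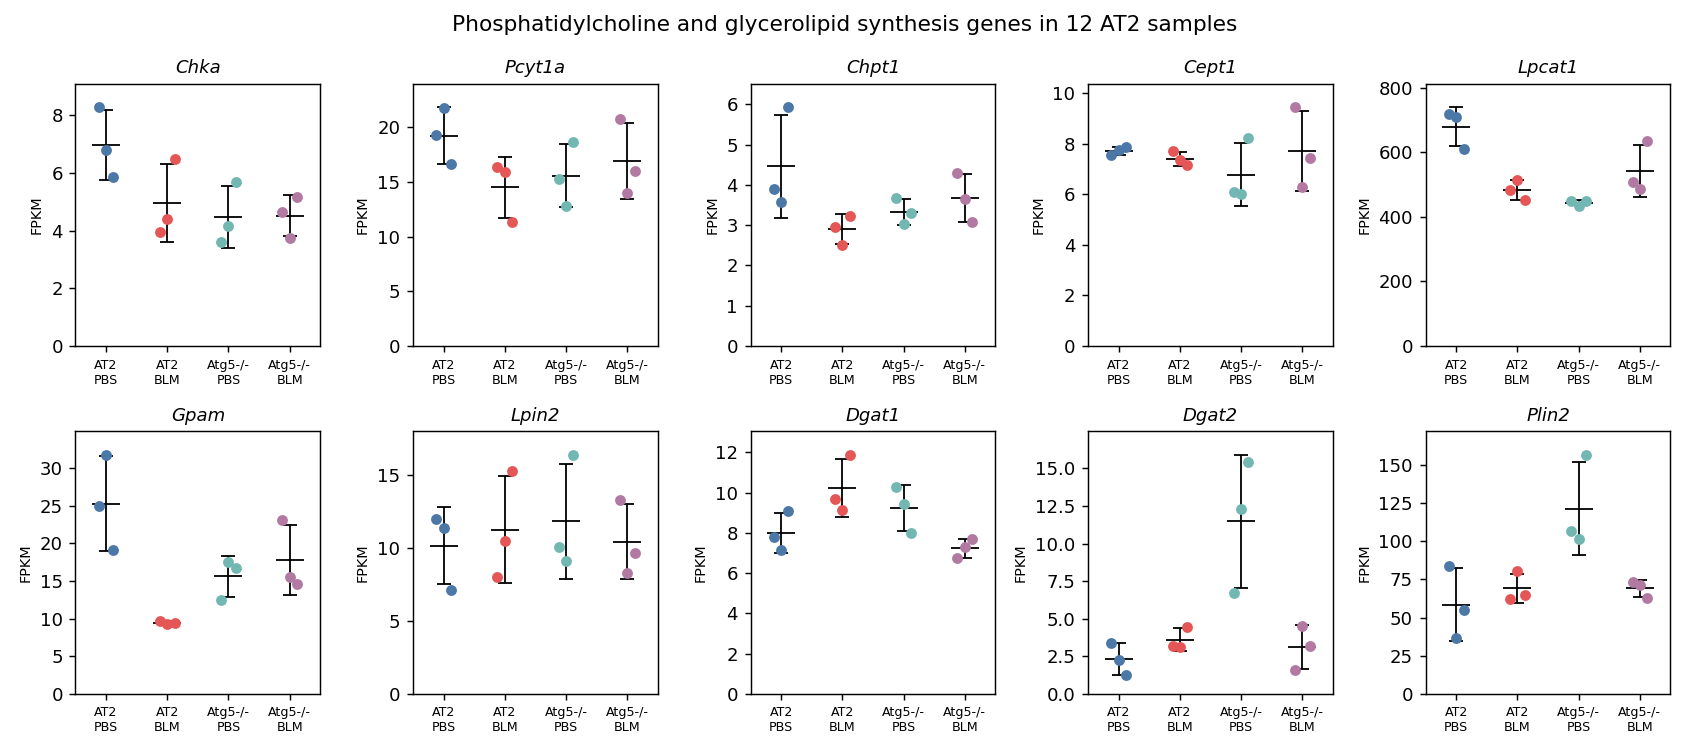
FPKM of the 10 genes in all 12 samples, 1 panel per gene and each axis starting at 0. Points are samples, the dash is the group mean and the bars are the SD (n = 3). Gpam in AT2-BLM lies at 9.22 to 9.73 and below all other samples, and Dgat2 and Plin2 are highest in the 3 Atg5-/- AT2-PBS samples.

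Lpcat1 encodes the acyltransferase that puts a saturated chain back on lysophosphatidylcholine and so makes the dipalmitoyl lipid of surfactant. It lies at chr13:73604645-73653870 and no other annotated gene overlaps it. The FPKM of Lpcat1 was 718, 709 and 611 in AT2-PBS, 483, 513 and 453 in AT2-BLM, 448, 435 and 448 in Atg5-/- AT2-PBS, and 507, 486 and 634 in Atg5-/- AT2-BLM. AT2-PBS was above AT2-BLM and Atg5-/- AT2-PBS in every sample, and Atg5-/- AT2-BLM was above Atg5-/- AT2-PBS, with replicate 3 within the range of AT2-PBS.

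After BLM in AT2 cells Lpcat1 fell by 0.49 on the log2 scale (SE 0.14, adjusted p = 0.037, limma). That change is close to the fold required, and the call was lost without AT2-PBS replicate 1 (-0.45), AT2-PBS replicate 2 (-0.46) or AT2-BLM replicate 3 (-0.44). In Atg5-/- AT2-PBS Lpcat1 was lower than in AT2-PBS by a log2 change of -0.61 (SE 0.14, adjusted p = 0.014), and the call held whichever sample was left out. Between Atg5-/- AT2-BLM and Atg5-/- AT2-PBS the change was 0.28 (SE 0.14, adjusted p = 0.291). The BLM effect on Lpcat1 differed between the genotypes by 0.77 (SE 0.20, adjusted p = 0.0392). The 8 other AT2 markers showed a median change of -0.28 after BLM in AT2 cells, -0.36 between the genotypes with PBS, and 0.68 for the difference of the BLM effects. They did not move as 1, since 3 were positive and 5 negative after BLM, and 2 positive and 6 negative between the genotypes. Sftpb was higher in both, by 1.81 and 1.57 (adjusted p = 0.0436 and 0.1085, limma), with AT2-PBS samples spread at 1777, 11572 and 2590 FPKM. Etv5 and Abca3 were called lower in both, Etv5 at -0.76 and -0.65 and Abca3 at -0.51 and -0.63. Lamp3 was called lower between the genotypes alone, at -0.66. Of these lower calls, that of Abca3 between the genotypes passed at an adjusted p (0.0492, limma). Scaled to these 8 markers, the Lpcat1 changes were -0.24, -0.17 and 0.19 in the order of those medians, and none was called. Under that scaling the median of all tested genes was 0.36, 0.37 and -0.56 in that order.

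After BLM in AT2 cells Gpam showed the largest change among the 10 genes. It encodes the mitochondrial glycerol-3-phosphate acyltransferase, which starts glycerolipid synthesis, and lies at chr19:55142142-55201824. The FPKM of Gpam was 24.9, 31.7 and 19.1 in AT2-PBS, 9.73, 9.22 and 9.45 in AT2-BLM, 12.5, 17.5 and 16.8 in Atg5-/- AT2-PBS, and 23.1, 15.5 and 14.6 in Atg5-/- AT2-BLM. The 3 AT2-BLM samples lay close together and below every other sample, and Atg5-/- AT2-PBS lay between them and AT2-PBS. Gpam fell by 1.299 on the log2 scale after BLM in AT2 cells (SE 0.21, adjusted p = 0.00318), and by 1.13 to 1.48 when 1 sample was left out. It was higher in Atg5-/- AT2-BLM than in AT2-BLM by 0.81 (SE 0.21, unadjusted p = 0.00255, adjusted p = 0.582), so that this call does not hold at an adjusted p.

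With PBS, Gpam was lower in Atg5-/- AT2 cells by a log2 change of -0.65 (SE 0.21, unadjusted p = 0.0107, adjusted p = 0.0818). That call was lost without AT2-PBS replicate 2 (-0.47), without Atg5-/- AT2-PBS replicate 1 (-0.51) and under the scaling to AT2 markers (-0.23). In Atg5-/- AT2 cells Gpam did not pass after BLM, with a log2 change of 0.16 (SE 0.21, adjusted p = 0.745). The BLM effect on Gpam thus differed between the genotypes by 1.46 (SE 0.30, adjusted p = 0.0133). Lpin2 encodes a phosphatidate phosphatase that supplies diacylglycerol and lies at chr17:71531900-71599157, overlapped on the same strand by Gm16724 and AC126942.1. It ranged from 7.11 to 16.3 FPKM over the 12 samples, its 4 groups overlapped, and none of its log2 changes, -0.15 to 0.19 between groups, was called. Its sign between AT2-BLM and AT2-PBS, 0.12 here, turned under quantile normalization (-0.08) and median-ratio scaling (-0.05) and without AT2-PBS replicate 3 (-0.09) or AT2-BLM replicate 3 (-0.10).

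The final step to triglyceride is catalysed by either of a pair of unrelated enzymes, encoded by Dgat1 and Dgat2. Dgat1, at chr15:76332445-76342381, had FPKM of 7.78, 7.12 and 9.09 in AT2-PBS, 9.67, 9.12 and 11.9 in AT2-BLM, 10.3, 9.43 and 8.001 in Atg5-/- AT2-PBS, and 6.74, 7.27 and 7.67 in Atg5-/- AT2-BLM. AT2-BLM was highest and did not overlap AT2-PBS or Atg5-/- AT2-BLM. The log2 change of Dgat1 after BLM was 0.32 in AT2 cells (SE 0.16, adjusted p = 0.182) and -0.31 in Atg5-/- AT2 cells (SE 0.16, adjusted p = 0.287), neither of them called. The difference of these effects was called, at -0.63 (SE 0.22, unadjusted p = 0.0164, adjusted p = 0.124), but not at an adjusted p, and was lost under quantile normalization (-0.40). Between the genotypes after BLM, Dgat1 showed a log2 change of -0.44 (SE 0.16, unadjusted p = 0.0169, adjusted p = 0.618), which reached the fold required when AT2-BLM replicate 2 was left out (-0.51).

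Dgat2, at chr7:106302173-106331223, is known for high levels in liver and fat. The FPKM of Dgat2 was 3.40, 2.25 and 1.26 in AT2-PBS, 3.20, 3.10 and 4.47 in AT2-BLM, 6.72, 12.3 and 15.4 in Atg5-/- AT2-PBS, and 1.57, 4.51 and 3.20 in Atg5-/- AT2-BLM. All 3 Atg5-/- AT2-PBS samples lay above the other 9, which overlapped each other. Dgat2 was higher in Atg5-/- AT2-PBS than in AT2-PBS by 1.90 on the log2 scale (SE 0.34, adjusted p = 0.00259) and fell by 1.61 from Atg5-/- AT2-PBS to Atg5-/- AT2-BLM (SE 0.34, adjusted p = 0.0126). The BLM effect on Dgat2 differed between the genotypes by -2.12 (SE 0.49, adjusted p = 0.0203). These calls held without any single sample and under each scaling tried.

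Plin2, which encodes the main coat protein of lipid droplets outside fat and lies at chr4:86294290-86315964, was also highest in Atg5-/- AT2-PBS. The FPKM of Plin2 was 83.8, 36.9 and 54.9 in AT2-PBS, 62.5, 80.3 and 64.7 in AT2-BLM, 107, 101 and 157 in Atg5-/- AT2-PBS, and 73.3, 71.7 and 62.8 in Atg5-/- AT2-BLM. The 3 Atg5-/- AT2-PBS samples were above all others, and AT2-PBS overlapped both BLM groups. Plin2 was higher in Atg5-/- AT2-PBS than in AT2-PBS by 1.09 (SE 0.26, adjusted p = 0.014). It was lower in Atg5-/- AT2-BLM than in Atg5-/- AT2-PBS by a log2 change of -0.78 (SE 0.26, unadjusted p = 0.0107, adjusted p = 0.0886), a call that was lost without Atg5-/- AT2-PBS replicate 3 (-0.58). The difference of the BLM effects on Plin2 was -1.08 (SE 0.36, unadjusted p = 0.0117, adjusted p = 0.1). In AT2 cells the change of Plin2 after BLM was 0.31 (SE 0.26, adjusted p = 0.424), and it passed when AT2-PBS replicate 1 was left out (0.60).

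At the level of groups, the rise of Dgat2 and Plin2 in Atg5-/- AT2-PBS moved with the markers of other cells given above. In the AT2-PBS group, replicate 1 had the highest alveolar macrophage sum (54.1) and the highest hepatocyte sum (548), and also the highest Dgat2 (3.40) and Plin2 (83.8). In Atg5-/- AT2-PBS, replicate 3 had the highest macrophage sum (1429), Dgat2 (15.4) and Plin2 (157), whereas the highest hepatocyte sum (3404) was in replicate 2. The macrophage sums there were largely Chil3, at 624, 597 and 977 FPKM in replicate order. Marco, Cd68 and Msr1 were lowest in replicate 3, and the other macrophage markers were highest in it. Replicate 2, with the lowest macrophage sum (1032), had more Dgat2 (12.3) than replicate 1 (6.72, at a sum of 1051). The BLM groups had no single sample that was highest in both of these sums and in Dgat2 and Plin2. In AT2-BLM, Dgat2 was highest in replicate 3 (4.47), the macrophage sum (121) and Plin2 (80.3) in replicate 2 and the hepatocyte sum (775) in replicate 1. In Atg5-/- AT2-BLM, Plin2 was highest in replicate 1 (73.3), which had the lowest macrophage (34.7) and hepatocyte (172) sums, while Dgat2 (4.51) and the hepatocyte sum (1197) were highest in replicate 2. Of 8 adipocyte markers, 4 were tested. Between Atg5-/- AT2-PBS and AT2-PBS 3 of these, Cidec, Pck1 and Fabp4, were called higher, where 14.1% of all genes were. Lep was listed at 0 in all samples and Adipoq did not exceed 0.902 FPKM. The summed adipocyte list was 41.5 to 71.4 FPKM in Atg5-/- AT2-PBS, 1.13 to 4.46 in AT2-PBS, 5.41 to 10.5 in AT2-BLM and 4.84 to 17.0 in Atg5-/- AT2-BLM. Airway markers, at 23515 to 85075 FPKM in Atg5-/- AT2-PBS against 4971 to 11799 in AT2-PBS, moved the same way by group. Within Atg5-/- AT2-PBS they did not, since replicate 3 had the lowest airway sum (23515). Its leukocyte sum (365) was also the lowest of that group, and the fibroblast sums there were nearly level, at 112 to 114. The part of these cells in the levels of Dgat2 and Plin2 was not tested.

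**Figure D3:**
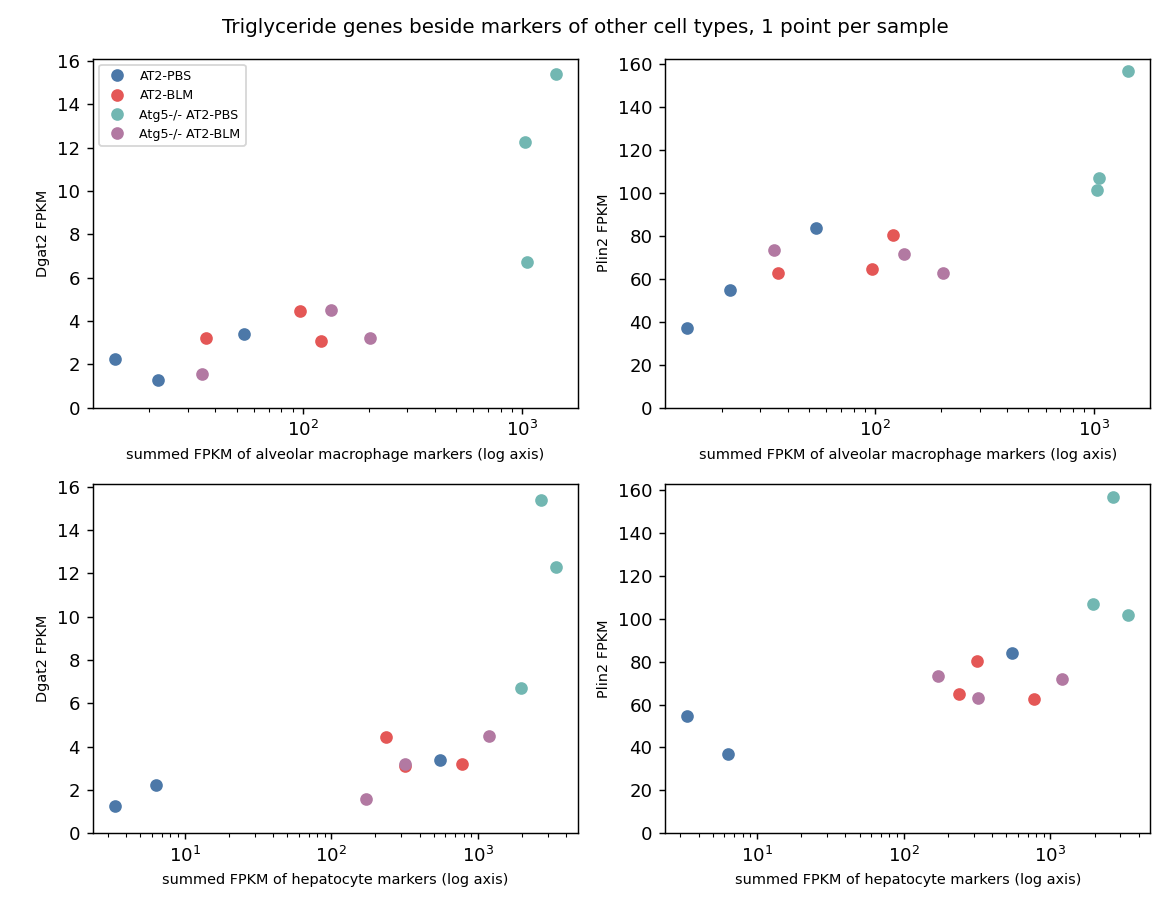
FPKM of Dgat2 (left) and Plin2 (right) in each of the 12 samples against the summed FPKM of 10 alveolar macrophage markers (top) or 12 hepatocyte markers (bottom), on log horizontal axes. The 3 Atg5-/- AT2-PBS samples lie apart at the upper right of each panel, with macrophage sums of 1032 to 1429 against at most 204 elsewhere.

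FPKM is scaled to gene length, so levels of different genes can be set side by side. Lpcat1 was the most abundant of the 10 genes in every group, with a mean of 444 to 679 FPKM, and Plin2 was second with a mean of 58.5 to 122, neither overlapping the gene ranked next. Gpam ranked at 3 in all groups except AT2-BLM, where it ranked at 6, below Pcyt1a, Lpin2 and Dgat1, and overlapped Dgat1. Dgat2 was last in AT2-PBS and Atg5-/- AT2-BLM, at 9 in AT2-BLM and at 6 in Atg5-/- AT2-PBS. The middle ranks mostly overlapped their neighbours and have no firm order.

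For 8 of the 10 genes, 1 from each family, the share in the summed FPKM of the genes of the same family or step was computed. Chka made up 18.4% to 27.9% of the choline kinases in the group means, Chkb being the rest. Chpt1 made up 28.1% to 36.2% of the pair with Cept1, and Lpin2 58.7% to 63.4% of the lipins. Pcyt1a made up 99.7% to 100% of its family in all groups, Pcyt1b being at or near 0. Lpcat1 made up 93.3% ± 1.099 (SD, n = 3) in AT2-PBS and 86.3% ± 3.53 in AT2-BLM, where Lpcat3 stood at 10.9% against 5.98%. Gpam made up 74.3% ± 3.58 of the glycerol-3-phosphate acyltransferases in AT2-PBS, 49.0% ± 5.72 in AT2-BLM, 64.3% ± 0.54 in Atg5-/- AT2-PBS and 68.9% ± 6.41 in Atg5-/- AT2-BLM. The AT2-BLM samples, at 42.8% to 54.1%, did not overlap those of any other group, the nearest sample being at 61.5%. The remainder was mostly Gpat4, an enzyme of the endoplasmic reticulum, at 7.83 ± 1.38 FPKM in AT2-PBS and 9.12 ± 2.07 in AT2-BLM. Dgat2 made up 22.2% ± 9.24 of both diacylglycerol acyltransferases in AT2-PBS and 54.0% ± 13.3 in Atg5-/- AT2-PBS. Among perilipins Plin2 made up 36.9% ± 9.47 and 58.5% ± 5.97 in the same groups, and Plin3 was most of the rest. These shares were not tested.

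**Figure D4:**
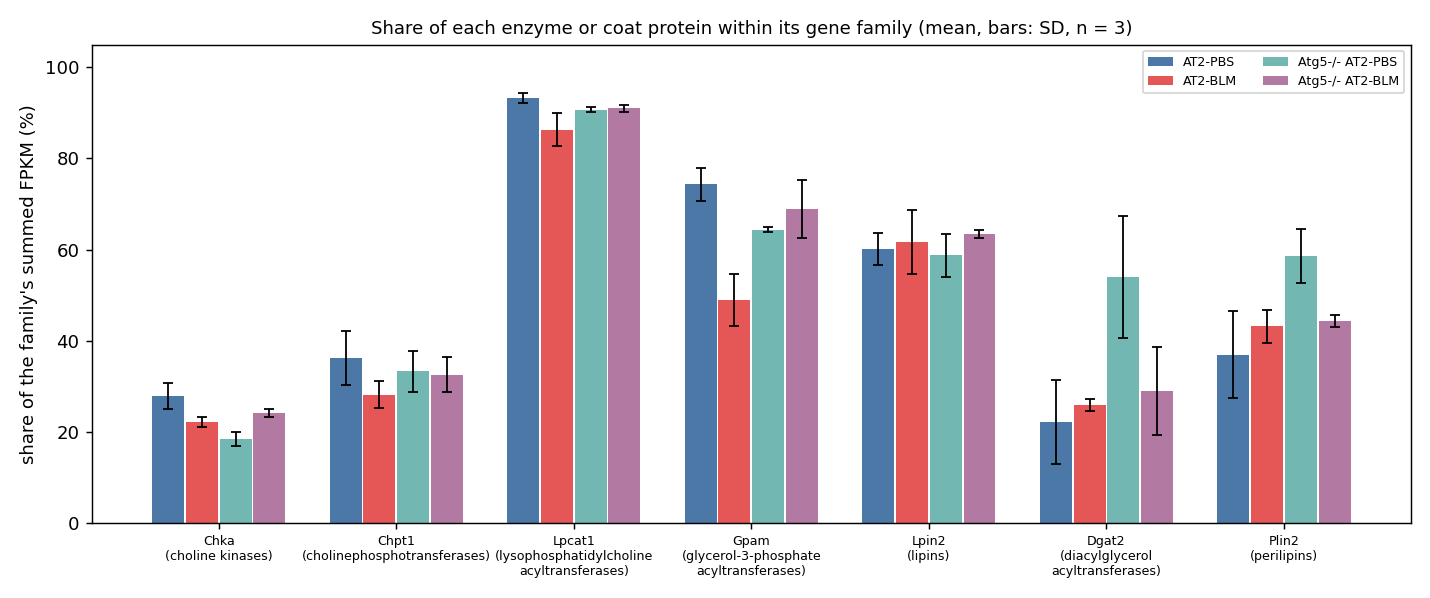
Share of 7 genes in the summed FPKM of their own gene family (vertical axis, percent, from 0), by group, as mean with SD (n = 3). Gpam stands at 49.0% in AT2-BLM against 64.3% to 74.3% in the other groups, and Dgat2 and Plin2 are highest in Atg5-/- AT2-PBS.

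The other genes of lipid synthesis, remodelling and storage were counted from 12 lists by role, 86 genes in all, of which 73 were tested. After BLM in AT2 cells 22 of the 73 were called, 15 higher and 7 lower, where 28.4% of all genes were called, 20.6% higher and 7.77% lower, so that the lists stood near the share over all genes. Their median change was 0.14 against 0.17 over all genes, and under median-ratio scaling 9 were called higher and 9 lower. Mgll, the lipase that splits monoacylglycerol, was lowest at -2.01 (SE 0.26, adjusted p = 0.00106), from 10.8 to 14.7 FPKM in AT2-PBS to 1.44 to 3.32 in AT2-BLM. Tmem159, which helps form lipid droplets, changed by -0.98 and Pcyt2, of the ethanolamine branch, by -0.76 (adjusted p = 0.00535 and 0.0147). Agpat4, which acylates lysophosphatidic acid at the step after Gpam, rose by 0.77 (adjusted p = 0.00796). Of the 9 tested genes of lysophospholipid remodelling, 5 were called higher and none lower, among them Lpcat4 at 1.34, while Lpcat1 was lower, and with quantile normalization or median-ratio scaling 3 were higher and 1 lower.

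Between Atg5-/- AT2-PBS and AT2-PBS, 22 of the 73 were called, 18 higher and 4 lower, where 19.3% of all genes were called, 14.1% higher and 5.16% lower. The median change was -0.06, against 0.02 over all genes, and quantile normalization put 14 higher and 11 lower. Of 6 tested lipid droplet proteins other than Plin2, 4 were called higher, also under each scaling tried. Cidec, which enlarges droplets, had FPKM of 15.96, 18.7 and 31.1 in Atg5-/- AT2-PBS, against at most 0.842 in AT2-PBS, a log2 change of 3.93 (SE 0.30, adjusted p = 1.49e-05). G0s2, an inhibitor of triglyceride lipase, was higher by 2.51 (adjusted p = 3.70e-05). The lysosomal enzymes Lipa, which splits cholesteryl esters and triglyceride, and Pla2g15, which splits phospholipid, were higher by 3.55 and 2.11 (adjusted p = 0.000132 and 5.72e-05). Cidec belongs also to the adipocyte list above, and both lysosomal enzymes are abundant in macrophages, whose markers rose in the same samples. What those cells contributed was not tested.

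After BLM in Atg5-/- AT2 cells 25 of the 73 were called, 6 higher and 19 lower, where 18.4% of all genes were called, 7.66% higher and 10.7% lower. Cidec fell by 3.82, G0s2 by 2.20, Hilpda, another lipase inhibitor, by 2.08 and Pla2g15 by 1.46 (adjusted p at most 0.00121, limma). The BLM effect differed between the genotypes for 22 of the 73 genes, against 20.2% of all genes, with 5 differences positive and 17 negative, where the shares over all genes were 5.02% and 15.2%. The differences of lowest p were Cidec at -3.63, Agpat4 at -1.78, Pla2g15 at -1.96 and Hilpda at -2.71 (adjusted p at most 0.00328, limma). Between Atg5-/- AT2-BLM and AT2-BLM 6 of the 73 were called, 2 higher and 4 lower, where 5.16% of all genes were called, 2.04% higher and 3.12% lower, and none of the 73 passed at an adjusted p in limma.

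**Figure D5:**
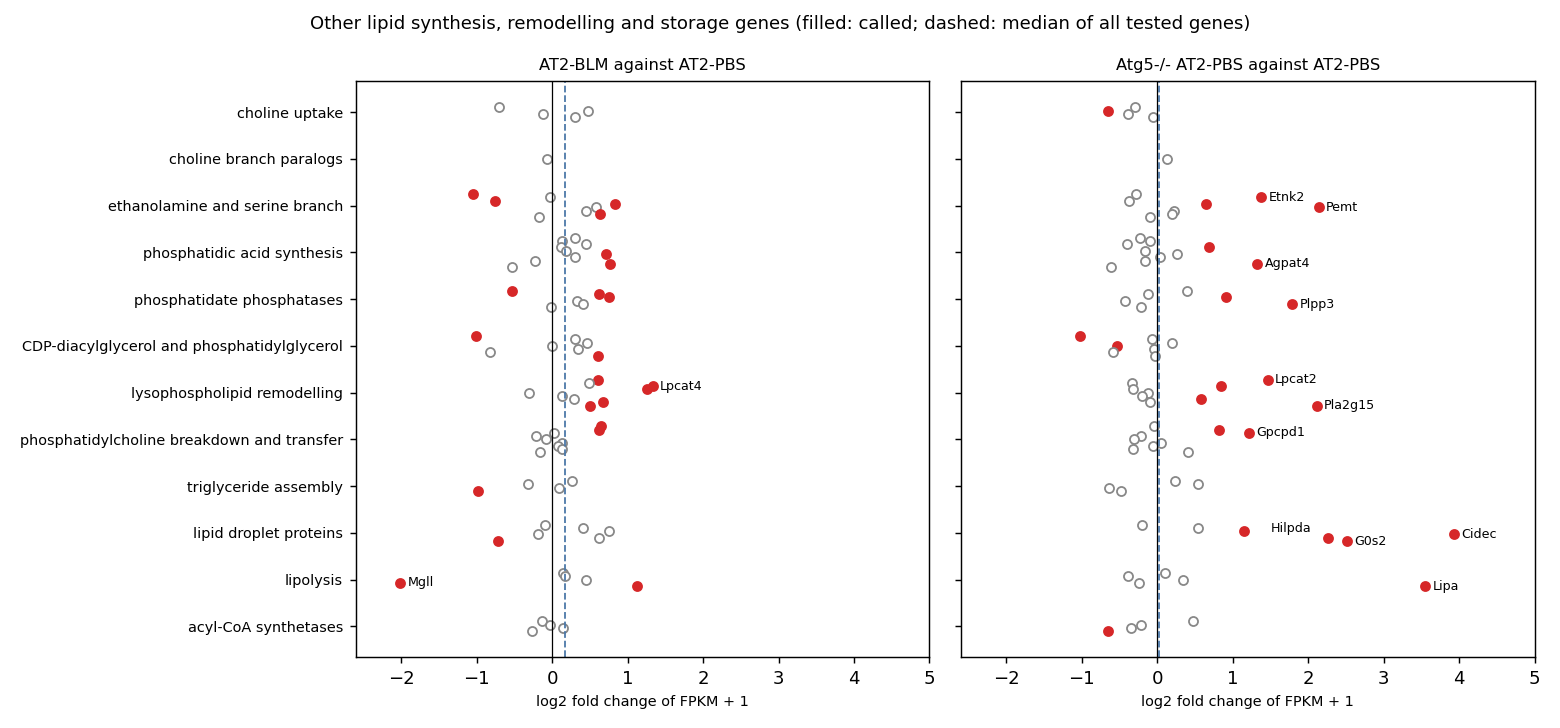
Log2 fold change of FPKM + 1 of the 73 other genes, by role list (vertical axis), after BLM in AT2 cells (left) and between the genotypes with PBS (right). Filled points are called, the dashed line is the median of all tested genes, and names mark changes over 1.2 in size that also passed at an adjusted p. Mgll is lowest on the left at -2.01, and Cidec is highest on the right at 3.93.

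For 4 members the 3 genes with the most similar pattern were read out as Pearson's r of log2(FPKM + 1) over the 12 samples, a description with no test, since samples share groups. For Pcyt1a these were Grb14 (r = 0.95), Maob (0.92) and Pcdhga10 (0.92), and for Lpcat1 they were Cenpu (0.92), Rab34 (0.90) and Anxa6 (0.88). For Dgat2 they were Cyp2c54 (0.96), Tnfaip8 (0.96) and Cyp2c50 (0.95), of which the Cyp2c genes are known from liver. For Plin2 they were Rab3a, Ttyh2 and Eepd1, each at 0.91.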

How the data were processed

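RNA-seq values of 12 samples were used as deposited by the authors, 1 FPKM per gene and sample. Per the labels and methods, reads were trimmed with Trimmomatic 0.36 and handled with Cufflinks 2.2.1 and HTSeq 0.9.1 on mm9, and library kits kept strand. The methods name STAR as aligner and the submitters' processing notes HISAT2, and whether the stated DESeq normalization entered the deposited FPKM is not given in the sources used here. The table holds no counts, so depth is unknown and no interval from counts was computed. The steps between low values put relative depth at 0.919 to 1.16 of AT2-PBS replicate 1, and summed FPKM was 390141 to 549169. The highest sum, of AT2-BLM replicate 2, was 436599 without Sftpc, and the next was 513380 in Atg5-/- AT2-PBS replicate 2. FPKM is relative to the rest of the sample, so a rise of abundant genes lowers all others.

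Groups came from sample titles. The titled AT2-PBS-3 was matched through its description, whose column name carries another number. Genes with at least 1 FPKM in at least 3 samples were tested with limma 3.58.1 (R 4.3.3) on log2(FPKM + 1), which understates changes of low genes, with a trend of the variance on the mean and all 12 samples fitted together, for 4 contrasts of groups and their interaction, and Benjamini-Hochberg adjustment over all tested genes. Figures used matplotlib 3.10.9. The fit was tested on simulated data. The 10 genes, the role lists and the marker lists were chosen with earlier results of these data known. Other pathway genes are named as the 4 of lowest p among those called at an adjusted p in each contrast, together with the paralogs of members. Gpat3 is listed as Agpat9. Alternatives were another pseudocount, no filter, quantile and median-ratio scaling, scaling to AT2 markers, no trend, only the compared groups, an adjusted p, a fold of 2, a replicate block and leaving out each sample.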

Additional observations from a re-analysis of the deposited data

Results flagged for a closer look

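In 5 of the 10 genes the effect of BLM differed between the genotypes by the interaction term of the limma fit, given as the log2 effect in Atg5-/- AT2 cells minus that in AT2 cells. Over all genes 20.2% were called for this term and 7.89% also passed at an adjusted p. It was 0.77 for Lpcat1 (SE 0.20, adjusted p = 0.0392) and 1.46 for Gpam (SE 0.30, adjusted p = 0.0133), with 3 samples in each group. It was -0.63 for Dgat1 (SE 0.22, adjusted p = 0.124), -2.12 for Dgat2 (SE 0.49, adjusted p = 0.0203) and -1.08 for Plin2 (SE 0.36, adjusted p = 0.1), so that Dgat1 and Plin2 fail the correction. Scaled to AT2 markers the Lpcat1 difference was 0.19 and not called, with the median of all tested genes at -0.56. With quantile normalization the Dgat1 difference was -0.40 and not called, with that median at 0.15. The genotype change was 1.90 with PBS and -0.22 after BLM for Dgat2, 1.09 and 0.0085 for Plin2, and -0.65 and 0.81 for Gpam. Atg5-/- AT2-PBS was also the group with the highest sums of macrophage, hepatocyte, airway, fibroblast, leukocyte and adipocyte markers. What those markers contribute was not tested.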

How the results depend on the processing

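Over the 10 genes, 5 contrasts and the alternatives other than an adjusted p and a fold of 2, 667 values kept direction and side of the threshold, 41 changed sign, 27 newly passed and 15 no longer passed, and no change that was called turned its sign. Of the 10 genes after BLM in AT2 cells, 2 were called here, 5 with quantile normalization, 5 with median-ratio scaling, 1 at a fold of 2 and 1 when scaled to AT2 markers. Over all tested genes, 3031 were called here, 2633 with quantile normalization, 2760 with median-ratio scaling and 3761 when scaled to AT2 markers. With PBS the genotype comparison called 5 of the 10, but 3 at an adjusted p, 2 at a fold of 2, 3 when scaled to AT2 markers and 3 to 5 with 1 sample left out. After BLM it called 1, but 2 with a pseudocount of 0.1, 0 at an adjusted p, 0 at a fold of 2, 2 when scaled to AT2 markers and 1 to 2 with 1 sample left out. In Atg5-/- AT2 cells BLM called 2, but 1 at an adjusted p, 1 at a fold of 2 and 1 to 2 with 1 sample left out. The interaction called 5, but 3 at an adjusted p and 3 at a fold of 2. Of the 73 other genes, BLM in AT2 cells called 22, but 13 at an adjusted p and 6 at a fold of 2, the genotypes with PBS 22, but 13 at a fold of 2, and the genotypes after BLM 6, but 3 with only the compared groups, 0 at an adjusted p and 2 at a fold of 2, with 4 to 8 when 1 sample was left out. BLM in Atg5-/- AT2 cells called 25, but 14 at an adjusted p and 11 at a fold of 2, and the interaction 22, but 14 at an adjusted p.

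Signs turned for genes that were not called. Scaled to AT2 markers, the log2 change of Cept1 was 0.17 after BLM in AT2 cells, 0.21 between the genotypes with PBS, -0.086 between them after BLM, -0.13 after BLM in Atg5-/- AT2 cells and -0.29 for the interaction. Under that scaling Pcyt1a was at 0.12 and Chpt1 at 0.029 between the genotypes with PBS, Plin2 at -0.13 between them after BLM, and Chka at -0.037 and Pcyt1a at -0.043 for the interaction. After BLM in Atg5-/- AT2 cells it put Chka at -0.25, Pcyt1a at -0.20, Chpt1 at -0.15, Lpcat1 at -0.047 and Gpam at -0.15. Lpin2 was at -0.082 with quantile normalization and -0.054 with median-ratio scaling after BLM in AT2 cells, and at 0.0062 with quantile normalization between the genotypes after BLM, and Chka at -0.055 with median-ratio scaling after BLM in Atg5-/- AT2 cells. With 1 sample left out, Lpin2 ran from -0.10 to 0.32 after BLM in AT2 cells, from -0.051 to 0.34 and from -0.28 to 0.14 between the genotypes with PBS and after BLM, and from -0.32 to 0.091 after BLM in Atg5-/- AT2 cells. Between the genotypes after BLM, Chka ran from -0.21 to 0.084, Cept1 from -0.10 to 0.16, Dgat2 from -0.47 to 0.080 and Plin2 from -0.059 to 0.12. After BLM in Atg5-/- AT2 cells, Chka ran from -0.10 to 0.17, Pcyt1a from -0.040 to 0.24 and Gpam from -0.033 to 0.28. The cause was not tested.

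Replicate numbers were not found to pair the samples, since in no comparison was every correlation of same-numbered deviations over 0.1 (0.19, 0.05 and 0.12 for BLM in AT2 cells), and of the 6 samples of a comparison 4, 0, 2 and 3, in the order of the report, correlated best with their own number. With a replicate block the 10 genes gave 2, 5, 1, 2 and 5 calls, as without it, and the other genes 22, 23, 5, 25 and 23. Depth is unknown, and with 3 samples a group and low levels such as those of Dgat2 the smaller differences could not be resolved.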
